A study of Mus musculus with 20 samples.

Results

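Cdkn1a, the gene of the cyclin-dependent kinase inhibitor p21, was examined together with Trp53, which encodes p53, and 8 genes that p53 is known to activate, namely Mdm2, Ccng1, Bax, Bbc3, Gdf15, Btg2, Sesn2 and Phlda3. The 10 genes were taken by name from a table of 54532 gene entries measured in mouse liver, and each name matched 1 entry. The set was chosen by the measured Cdkn1a levels of the 4 groups, which were already known, with the question of whether other p53 targets share them, so the Cdkn1a differences are described here without a test. The 4 groups were livers of mice lacking STING whose bile duct had been ligated for 7 days (BDL), livers of wild-type mice after the same ligation, livers of sham-operated STING knockout mice and livers of sham-operated wild-type mice, with 5 libraries each. STING is a signalling adaptor for cytosolic DNA, and ligation of the bile duct blocks bile flow and causes cholestasis. The knockout allele, the cells in which it acts, the strain and the age of these mice are not stated in the labels. Nothing in the labels says that the 5 livers of a group came from separate animals, so p-values reflect only how these libraries vary.

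The transcription factor p53 is held at a low level by the ubiquitin ligase Mdm2, itself a p53 target, and is stabilised when DNA or ribosome synthesis is damaged. Its targets stop the cell cycle (Cdkn1a, Btg2, Ccng1), feed back on p53 (Mdm2), drive mitochondrial cell death (Bax, Bbc3), damp growth signalling (Sesn2, Phlda3) or are secreted (Gdf15). Cdkn1a is also induced without p53 in liver, for example by transforming growth factor, glucocorticoid, Kruppel-like and circadian factors.

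The start-proximal sequences are shown first, because p53 binds DNA as a pair of decamers and the Cdkn1a window holds such a pair. The 250 bases before each RefSeq transcription start (GRCm38.p6) were searched for the p53 consensus decamer, which is its own reverse complement, so 1 scan covers both strands. All 10 members had at least 1 start in the table, 14 starts in all, and the decamer was found before 5 of them, those of Cdkn1a, Mdm2, Ccng1, Bax and Trp53, against 7.13% of 32851 promoters. A pair of decamers separated by up to 13 bases was found before 1 Cdkn1a start and before no other member, against 0.0639% of all promoters. The other Cdkn1a start lies downstream, with its promoter entry at chr17:29093519-29093818, and had no decamer before it. The Cdkn1a window with the pair lies at chr17:29090729-29090978 on the plus strand, before the upstream start. The matching decamers are in capitals, at -73 to -64 and -51 to -42 from that start, separated by 12 bases. The last of them is followed without a gap by tgacatgttc, which departs from the consensus at its first base and so was not marked. Only exact matches were searched, so the marked pair need not be the pair that p53 binds.
Cdkn1a: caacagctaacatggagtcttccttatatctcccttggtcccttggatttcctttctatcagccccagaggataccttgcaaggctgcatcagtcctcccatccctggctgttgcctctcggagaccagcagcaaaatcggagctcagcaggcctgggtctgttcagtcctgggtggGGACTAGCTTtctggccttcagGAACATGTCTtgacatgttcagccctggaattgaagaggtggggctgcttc
The windows of the other members with a decamer, shown for comparison with the decamer in capitals, lie at chr10:117710915-117710964 on the minus strand for Mdm2, chr11:40755442-40755491 on the minus strand for Ccng1, chr7:45467070-45467119 on the minus strand for Bax and chr11:69580264-69580313 on the plus strand for Trp53.
Mdm2: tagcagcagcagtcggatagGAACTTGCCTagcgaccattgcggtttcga
Ccng1: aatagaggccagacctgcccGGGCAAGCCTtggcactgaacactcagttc
Bax: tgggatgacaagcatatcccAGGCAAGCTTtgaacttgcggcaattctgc
Trp53: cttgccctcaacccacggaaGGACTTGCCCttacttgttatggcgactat
A match describes letters in this window, and the absence of one says nothing of p53 sites elsewhere, such as in introns or farther upstream.

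Each library held 14.9 to 20.9 M fragments assigned to genes. Values are FPKM, fragments per kilobase of transcript per 1 M fragments, as the authors scaled them. Albumin was the abundant transcript of hepatocytes in every group, at 15164 FPKM or more in each library. Tmem173, which encodes STING, averaged 1.42 ± 0.762 FPKM in ligated knockout livers against 3.64 ± 0.861 FPKM in ligated wild-type livers, and 0.743 ± 0.189 FPKM in sham knockout livers against 1.71 ± 0.544 FPKM in sham wild-type livers (SD, n = 5 each). The ligated knockout libraries BDL_KO_2248 and BDL_KO_2359 stood apart. Their summed cholangiocyte markers, 63.7 and 84.5 FPKM over 8 genes, lay below the 226 to 612 FPKM of ligated wild-type livers and above the 20.5 to 32.5 FPKM of the sham libraries. Their summed stellate cell and matrix markers, 7.16 and 14.4 FPKM, and their monocyte and macrophage markers, 77.1 and 154 FPKM, were no higher than the highest sham sums of 23.8 and 181 FPKM. The members' results in ligated knockout livers, and the counts over other gene lists, are therefore given with and without both libraries. The number in the title of BDL_KO_2248 lies nearer to those of the wild-type libraries than to those of the other knockout libraries, while its Tmem173 level, 0.638 FPKM, was the lowest of the ligated knockout group. Tmem173 was 0.840 FPKM in BDL_KO_2359 and 1.38, 2.57 and 1.66 FPKM in BDL_KO_2365, BDL_KO_2370 and BDL_KO_2371. Results without both libraries thus rest on the ligated knockout libraries with the most Tmem173 mRNA. By Xist and Y-linked transcripts each group held 2 or 3 libraries of either sex. Dividing by each library's FPKM sum in place of the authors' scaling moved the median gene by 0.29 (log2) for ligation in wild type and by -0.25 for knockout after ligation, and the share of calls that were higher was then 82.8% against 50.8% and 6.96% against 39.2%.

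Cdkn1a (ENSMUSG00000023067, chr17:29090976-29100727, plus strand, GRCm38) was 50.8, 5.50, 22.3, 19.5 and 14.5 FPKM in the ligated knockout libraries BDL_KO_2248, BDL_KO_2359, BDL_KO_2365, BDL_KO_2370 and BDL_KO_2371. In ligated wild-type livers it was 30.7, 16.2, 39.3, 13.5 and 45.6 FPKM in BDL_Wt_2233, BDL_Wt_2235, BDL_Wt_2236, BDL_Wt_2237 and BDL_Wt_2240. In sham knockout livers it was 10.0, 22.4, 17.3, 25.3 and 12.0 FPKM in Sham_KO_2347, Sham_KO_2349, Sham_KO_2350, Sham_KO_2352 and Sham_KO_2353. In sham wild-type livers it was 2.21, 2.43, 1.66, 3.29 and 2.99 FPKM in Sham_Wt_2223, Sham_Wt_2224, Sham_Wt_2227, Sham_Wt_2228 and Sham_Wt_2229. Values of other genes are listed in the same order of libraries. The sham wild-type livers thus stood below all 15 other libraries, while the other 3 groups overlapped one another. In order of their means the groups were ligated wild type at 29.1 ± 14.0, ligated knockout at 22.5 ± 17.0, sham knockout at 17.4 ± 6.56 and sham wild type at 2.52 ± 0.646 FPKM (SD, n = 5 each). Neighbours among the first 3 differed by less than the SD within the higher of them. On the log2(FPKM + 0.5) scale the differences were 3.17 for ligation in wild type, 0.12 for ligation in knockout, 2.51 for knockout after sham and -0.53 for knockout after ligation, each with an SE of 0.44. Sham knockout livers were already high, and 13 of the 25 pairs of ligated and sham knockout libraries had the ligated one higher. A transcript of uncertain coding status on the opposite strand, AC167363.2, shares 273 exonic bases with Cdkn1a and averaged 0.758 FPKM, and whether counting used strand is not stated in the labels.

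**Figure D1:**
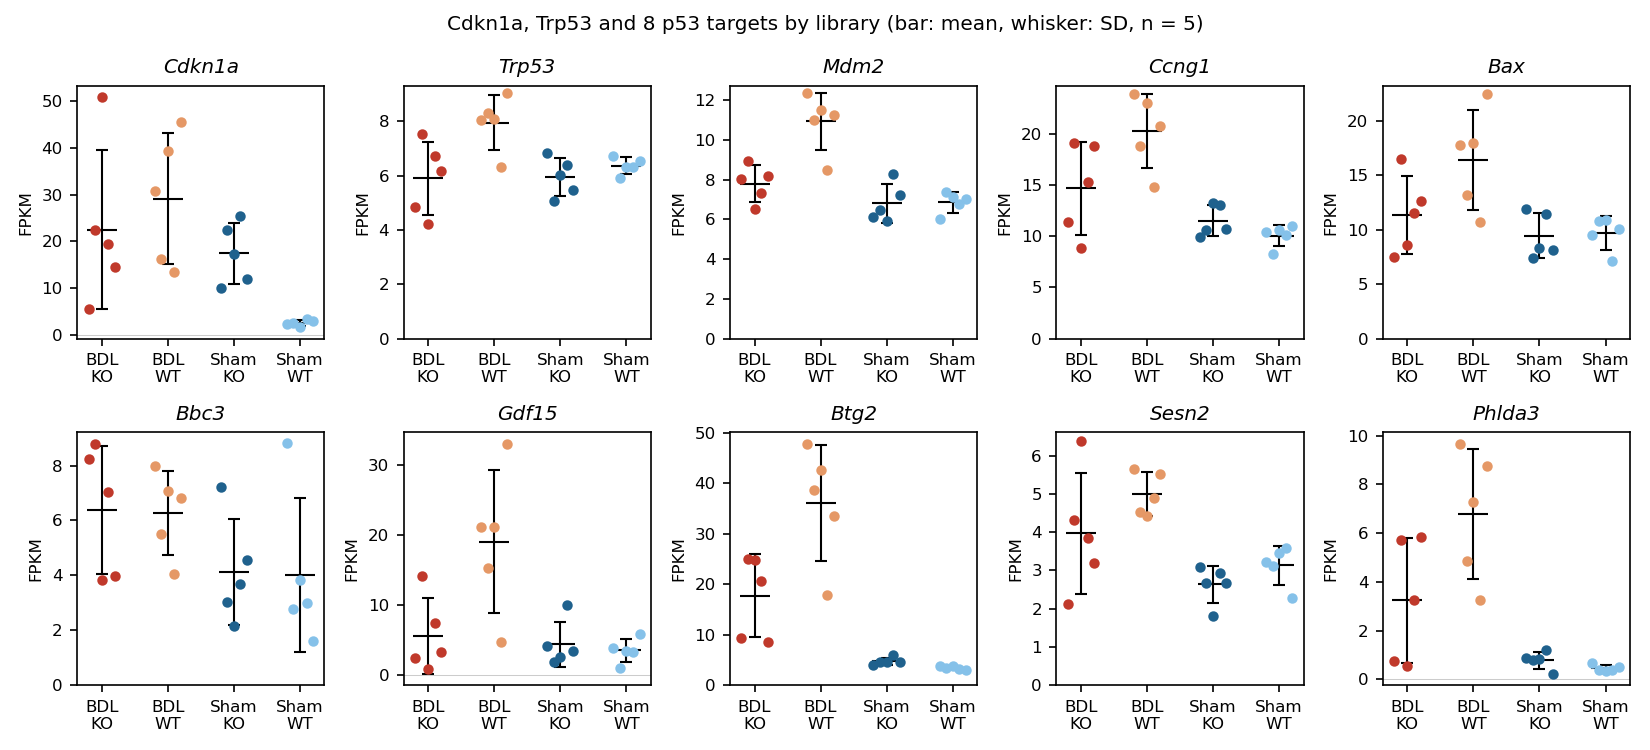
FPKM of Cdkn1a, Trp53 and 8 p53 targets, 1 panel per gene, with 1 point per library in the 4 groups, horizontal bars for the mean and whiskers for the SD (n = 5). Cdkn1a is low in sham wild-type livers alone, at 1.66 to 3.29 FPKM, while Btg2 and Phlda3 are low in both sham groups.

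The comparison of ligated with sham wild-type livers asks how p53 targets behave in cholestasis when STING is intact. Of the 9 members other than Cdkn1a, 7 rose (limma on log2(FPKM + 0.5), Benjamini-Hochberg adjusted over 14059 genes), while 18.1% of all genes tested were called higher. Their median difference was 0.74, against -0.02 over all genes. Trp53 and Bbc3 were the members that did not pass. All members were tested, and Phlda3 was the only one under 0.5 FPKM in any library, with 6 of the 10 sham libraries at or above that filter and all 10 ligated ones.

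Btg2 (ENSMUSG00000020423, chr1:134075170-134079120, minus strand) encodes an antiproliferative cofactor of mRNA deadenylation. It was 47.9, 38.7, 42.7, 17.9 and 33.6 FPKM in ligated wild-type livers, against 3.79, 3.34, 3.80, 3.18 and 3.06 FPKM in sham wild-type livers. All ligated values lay above all sham values, and the log2 difference was 3.15 ± 0.28 (SE, limma adjusted p = 3.69e-07). Phlda3 (ENSMUSG00000041801, chr1:135766119-135769136, plus strand) encodes a pleckstrin homology protein that competes with the kinase Akt for membrane lipids. It was 9.66, 4.87, 7.28, 3.27 and 8.78 FPKM in the same ligated libraries, against 0.670, 0.386, 0.344, 0.383 and 0.513 FPKM in the sham ones, again without overlap, a difference of 2.84 ± 0.43 (adjusted p = 5.84e-05). Gdf15 (ENSMUSG00000038508, chr8:70629393-70632456, minus strand), a stress-induced secreted factor that acts on brainstem receptors to lower food intake, was 21.1, 15.2, 21.2, 4.71 and 32.9 FPKM against 3.84, 1.01, 3.47, 3.32 and 5.77 FPKM. Its ligated library BDL_Wt_2237 fell within the sham range while the other 4 lay above it, and the difference was 2.20 ± 0.59 (adjusted p = 0.00684).

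The genes of the p53 feedback loop come next. Mdm2 (ENSMUSG00000020184, chr10:117688875-117710758, minus strand) averaged 10.9 ± 1.46 FPKM in ligated and 6.87 ± 0.525 FPKM in sham wild-type livers (SD, n = 5 each), with no overlap and a log2 difference of 0.63 ± 0.11 (SE, limma adjusted p = 0.000188). Ccng1 (ENSMUSG00000020326, chr11:40748552-40755311, minus strand), the cyclin G1 gene, whose product brings a phosphatase to Mdm2, averaged 20.3 ± 3.62 against 10.1 ± 1.05 FPKM, also without overlap, a difference of 0.96 ± 0.18 (adjusted p = 0.000359). Both genes belong to the feedback loop that keeps p53 low. Trp53 (ENSMUSG00000059552, chr11:69580359-69591873, plus strand) averaged 7.96 ± 1.01 FPKM in ligated and 6.36 ± 0.306 FPKM in sham wild-type livers, and its difference of 0.29 ± 0.13 did not pass (adjusted p = 0.0772). Trp53 mRNA is a poor guide to p53 activity, which is controlled mainly through the stability of the protein.

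Of the death effectors Bax passed and Bbc3 did not. Bax (ENSMUSG00000003873, chr7:45461697-45466898, minus strand), whose product permeabilises mitochondria, averaged 16.4 ± 4.58 FPKM in ligated and 9.67 ± 1.54 FPKM in sham wild-type livers, with 1 ligated library inside the sham range, and rose by 0.70 ± 0.21 (SE, limma adjusted p = 0.0132). Bbc3 (ENSMUSG00000002083, chr7:16308393-16318205, plus strand) encodes PUMA, which releases Bax from its inhibitors, and averaged 6.29 ± 1.53 against 4.01 ± 2.80 FPKM. Its sham library Sham_Wt_2223, at 8.83 FPKM, exceeded every ligated wild-type library, and the difference of 0.74 ± 0.34 did not pass (adjusted p = 0.101). Sesn2 (ENSMUSG00000028893, chr4:132492032-132510501, minus strand), a stress-induced inhibitor of the growth kinase complex mTORC1, averaged 5.00 ± 0.566 against 3.13 ± 0.505 FPKM without overlap and rose by 0.61 ± 0.19 (adjusted p = 0.0170). In all, 5 of the 9 members had every ligated wild-type library above every sham wild-type library, as did 16.6% of the genes tested.

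Cell type markers moved with the same comparison. Summed cholangiocyte markers ranged from 226 to 612 FPKM in ligated and from 20.5 to 27.2 FPKM in sham wild-type livers, and summed monocyte and macrophage markers from 335 to 429 against 107 to 175 FPKM. Hepatocyte markers summed to 24262 to 33371 FPKM in ligated and 46510 to 64809 FPKM in sham wild-type livers, over 9 genes. Their part in the rise of the p53 targets was not tested, and in bulk liver a change in the number of cells of a type cannot be told apart from a change in RNA per cell.

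The same ligation in knockout livers asks whether that response occurs without STING. Of the 9 members, 2 rose, Btg2 and Phlda3, while 12.3% of all genes were called higher, and the median member difference was 0.29 against -0.01 over all genes. Btg2 was 24.9, 9.32, 25.1, 20.7 and 8.48 FPKM in ligated knockout livers, against 3.91, 4.61, 4.49, 5.88 and 4.52 FPKM in sham knockout livers. It was the only member without overlap, as were 5.85% of the genes tested, and rose by 1.68 ± 0.28 (SE, limma adjusted p = 0.000385). Phlda3 was 0.565, 0.770, 5.74, 3.27 and 5.85 FPKM in the ligated and 0.878, 0.775, 0.827, 1.22 and 0.240 FPKM in the sham knockout libraries. Its ligated libraries fell into 3 high ones and, at sham level, BDL_KO_2248 and BDL_KO_2359, whose values rest on 12 and 18 fragments, and the difference was 1.22 ± 0.43 (adjusted p = 0.0444).

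The other members are given by value. Gdf15 was 0.793, 2.34, 14.2, 7.36 and 3.22 FPKM in ligated and 4.12, 1.88, 2.61, 9.91 and 3.46 FPKM in sham knockout libraries. The groups overlapped, with BDL_KO_2248 below and BDL_KO_2365 above the sham range, and had a log2 difference of 0.03 (95% confidence interval -1.20 to 1.27, limma adjusted p = 0.976). Ccng1 averaged 14.7 ± 4.52 against 11.5 ± 1.51 FPKM and Sesn2 3.97 ± 1.58 against 2.64 ± 0.492 FPKM, with differences of 0.29 ± 0.18 (adjusted p = 0.241) and 0.46 ± 0.19 (adjusted p = 0.0847). The remaining members, Trp53, Mdm2, Bax and Bbc3, differed by -0.03 to 0.59 with adjusted p of 0.209 or more. Without BDL_KO_2248 and BDL_KO_2359, 4 members rose, Btg2 by 1.72, Phlda3 by 2.09, Ccng1 by 0.60 and Sesn2 by 0.46, with limma adjusted p of 0.000312, 6.11e-05, 0.00324 and 0.0204, while 19% of all genes were then called higher. Gdf15 differed by 0.82 in that fit (adjusted p = 0.300). The Phlda3 call is the less firm one, since it was lost under 18 of 32 alternative settings, with adjusted p of up to 0.143.

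**Figure D2:**
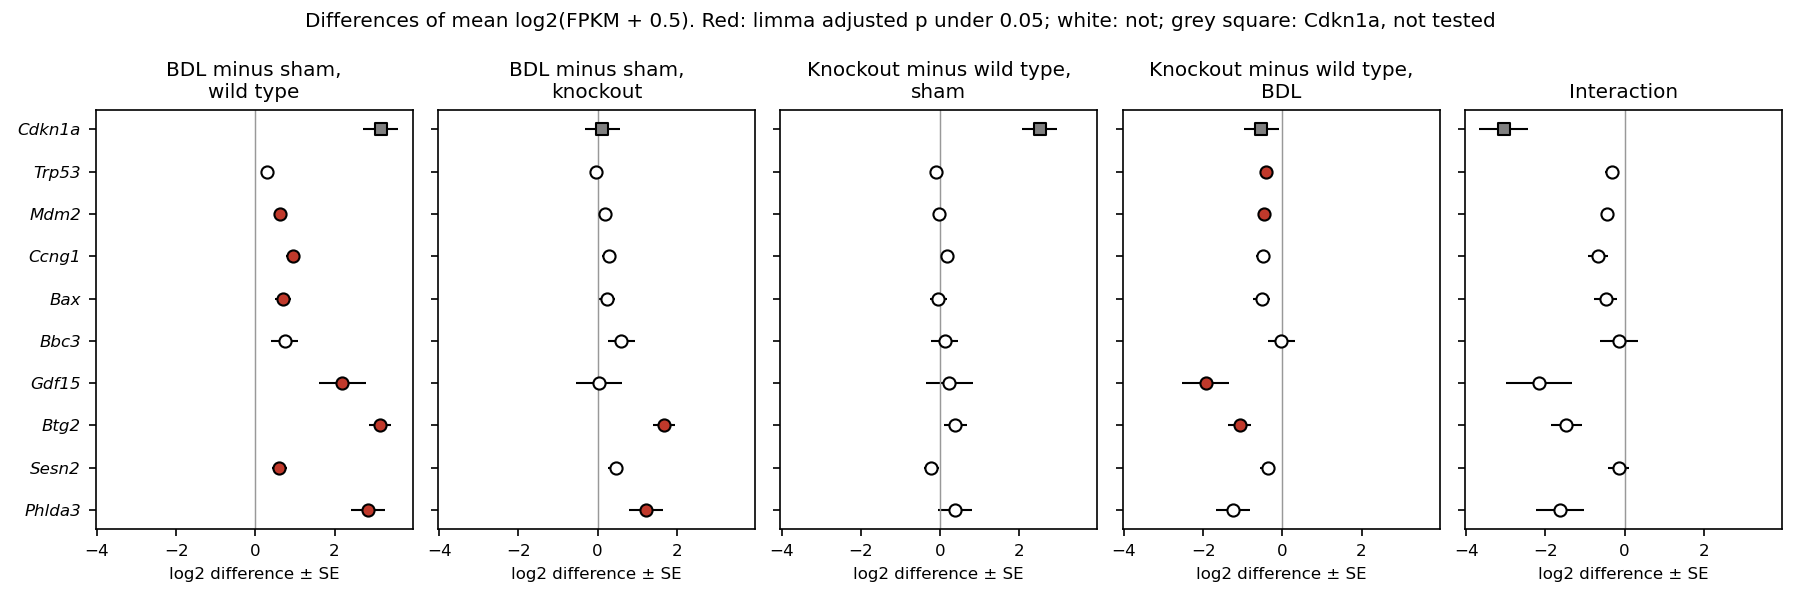
Differences of mean log2(FPKM + 0.5) with their SE for the 10 genes in 5 comparisons, 1 panel each, with red points for a limma adjusted p under 0.05, white points for the others and grey squares for Cdkn1a, which was not tested. For knockout minus wild type after sham surgery Cdkn1a stands at 2.51 while the other members lie between -0.22 and 0.39.

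Sham knockout against sham wild-type livers compares the genotypes, with their separate ranges of library numbers, without cholestasis, and here Cdkn1a had its 2.51 log2 difference with no overlap. None of the 9 other members passed, and none had an unadjusted p under 0.05 (limma) or a call by voom on recovered fragments, while 2.97% of all genes were called. Their median difference was 0.12 against 0.01 over all genes. The highest upper bounds of their 95% confidence intervals were 1.47 for Gdf15, 1.28 for Phlda3, 0.98 for Btg2 and 0.84 for Bbc3. Mdm2, from -0.24 to 0.20, and Trp53, from -0.36 to 0.17, had the narrowest intervals. All intervals use 1 spread shared by the 4 groups, so the ligated libraries enter them. With only the sham groups in the fit none of the 9 passed either.

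Btg2 was the member whose groups did not overlap in this comparison. Its sham knockout libraries, at 3.91 to 5.88 FPKM, all lay above the sham wild-type ones, at 3.06 to 3.80 FPKM, as in 3.49% of the genes tested, but the difference of 0.39 ± 0.28 (SE) did not pass (limma adjusted p = 0.513). Over 32 alternative settings its limma adjusted p was 0.0528 at the lowest. Mdm2 averaged 6.80 ± 0.966 in sham knockout and 6.87 ± 0.525 FPKM in sham wild-type livers, and Trp53 5.95 ± 0.697 and 6.36 ± 0.306 FPKM (SD, n = 5 each). Ccng1 averaged 11.5 ± 1.51 and 10.1 ± 1.05, Bax 9.46 ± 2.05 and 9.67 ± 1.54, and Sesn2 2.64 ± 0.492 and 3.13 ± 0.505 FPKM. The ranges of these members overlapped between the groups. Summed cell type markers overlapped between these groups, with cholangiocyte sums of 26.4 to 32.5 FPKM in sham knockout against 20.5 to 27.2 FPKM in sham wild-type livers and hepatocyte sums of 49892 to 61949 against 46510 to 64809 FPKM.

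Ligated knockout against ligated wild-type livers compares the genotypes in cholestasis. Here Cdkn1a overlapped between the groups and several targets were lower. Of the 9 members, 4 fell, Mdm2, Btg2, Trp53 and Gdf15, while 5.37% of all genes were called lower, and the median was -0.49 against 0.01 over all genes. Mdm2 was 6.52, 8.06, 8.92, 7.34 and 8.20 FPKM in knockout livers, against 12.4, 11.0, 11.5, 8.49 and 11.3 FPKM in wild-type livers. Only BDL_KO_2365 and BDL_Wt_2237 crossed, and Mdm2 fell by 0.46 ± 0.11 on the log2 scale (SE, limma adjusted p = 0.0122). Btg2 averaged 17.7 ± 8.22 against 36.1 ± 11.5 FPKM (SD, n = 5 each) and fell by 1.08 ± 0.28 (adjusted p = 0.0235), and Gdf15 averaged 5.58 ± 5.38 against 19.0 ± 10.3 FPKM and fell by 1.93 ± 0.59 (adjusted p = 0.0474). For Btg2 the crossing came from BDL_Wt_2237, the lowest of its group. Trp53 averaged 5.90 ± 1.36 against 7.96 ± 1.01 FPKM and fell by 0.42 ± 0.13 (adjusted p = 0.0436).

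The other members had lower means in knockout livers except Bbc3, at 6.38 ± 2.34 against 6.29 ± 1.53 FPKM, but did not pass. Phlda3 averaged 3.24 ± 2.56 against 6.77 ± 2.67 FPKM, with a log2 difference of -1.24 (95% confidence interval -2.14 to -0.34, limma adjusted p = 0.0759), and Ccng1 differed by -0.49 ± 0.18 (adjusted p = 0.0877). Bax averaged 11.4 ± 3.56 against 16.4 ± 4.58 FPKM (difference -0.52, adjusted p = 0.129), and Sesn2 3.97 ± 1.58 against 5.00 ± 0.566 FPKM (difference -0.37, adjusted p = 0.241). No member had groups without overlap, as against 2.17% of genes wholly higher and 3.33% wholly lower. The calls rest in part on the libraries that stood apart. Without BDL_KO_2248 and BDL_KO_2359, Btg2 alone passed, at -1.04 (adjusted p = 0.0464), with Mdm2 at -0.40 (0.0565), Gdf15 at -1.14 (0.285) and Trp53 at -0.20 (0.281), while 3.38% of genes were called lower. With only the 2 ligated groups in the fit none passed, and leaving out single libraries gave 1 to 7 calls, the 7 without BDL_KO_2365. Cholangiocyte markers summed to 63.7 to 563 FPKM in ligated knockout and 226 to 612 FPKM in ligated wild-type livers, and monocyte and macrophage markers to 77.1 to 405 and 335 to 429 FPKM. Sinusoidal endothelial markers summed to 23.6 to 44.0 and 17.0 to 28.6 FPKM, with 3 of 7 called higher in knockout and 6 of 7 without BDL_KO_2248 and BDL_KO_2359. Hepatocyte markers summed to 31278 to 62089 and 24262 to 33371 FPKM, with 2 of 9 called higher, against none higher and 1 lower without those libraries. Without them 4 of 8 stellate cell and matrix markers were called higher and 2 of 8 monocyte and macrophage markers lower. Of the 14059 genes tested, 1241 were called between these groups, 39.2% of them as higher. In the fit without BDL_KO_2248 and BDL_KO_2359, 3.27% of all genes were called higher. The part of these cell types in the lower targets was not tested.

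Whether ligation acted differently by genotype was tested directly as an interaction. None of the 9 members passed (limma) and none by voom, while 0.377% of all genes were called at the adjusted threshold. At an unadjusted p under 0.05 there were 5, and the share of all genes at that threshold is not given here. Those 5 were Mdm2 at -0.44, Ccng1 at -0.67, Gdf15 at -2.17, Btg2 at -1.47 and Phlda3 at -1.62 on the log2 scale, and Btg2, at ± 0.40 (SE), came nearest with an adjusted p of 0.132. The other 4 members, Trp53, Bax, Bbc3 and Sesn2, differed by -0.33, -0.48, -0.15 and -0.15. Btg2 passed with array weights and without BDL_Wt_2237, at an adjusted p down to 0.0361. The median member stood at -0.48. Without BDL_KO_2248 and BDL_KO_2359 none passed, and the values were -0.38 for Mdm2, -0.36 for Ccng1, -1.38 for Gdf15, -1.43 for Btg2 (limma adjusted p = 0.0879) and -0.75 for Phlda3, with a median of -0.36. The Cdkn1a value was -3.05, most of it from the sham groups, since knockout exceeded wild type by 2.51 there and lay 0.53 lower after ligation. The comparisons share groups, so their values are not independent of one another.

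**Figure D3:**
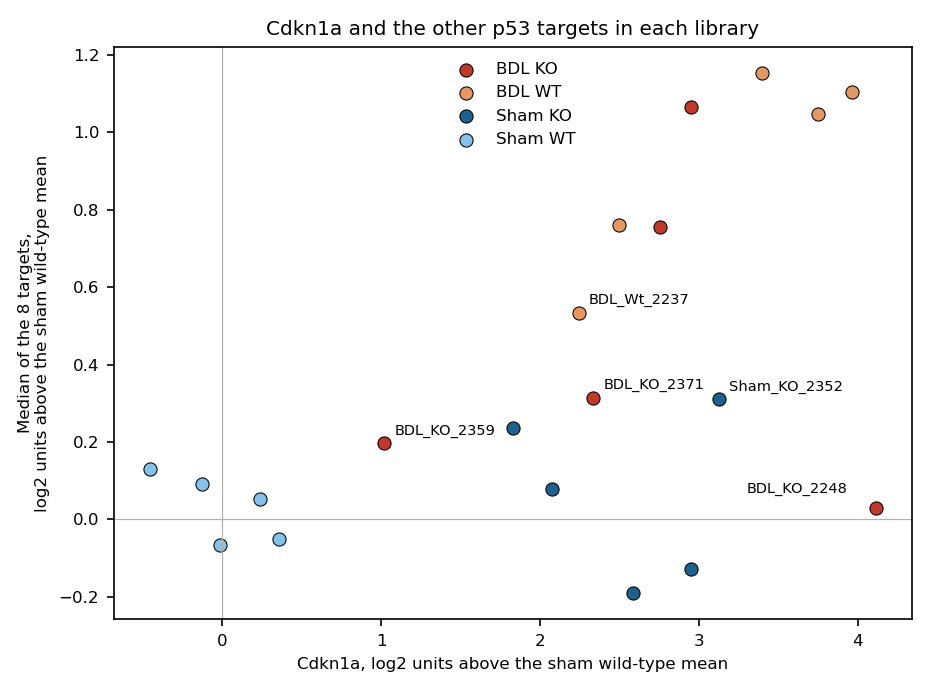
Each point is 1 library, with Cdkn1a on the horizontal axis and the median of the 8 p53 targets on the vertical axis, both in log2(FPKM + 0.5) units above the mean of sham wild-type livers. The sham knockout libraries lie at 1.83 to 3.13 for Cdkn1a but at -0.19 to 0.31 for the targets, and BDL_KO_2248 lies at 4.11 and 0.03.

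Library by library, Cdkn1a and the 8 targets parted in the sham knockout group and in the ligated knockout library BDL_KO_2248. Ligated wild-type libraries had Cdkn1a 2.24 to 3.96 log2 units above the sham wild-type mean, with a target median of 0.53 to 1.15 and with 5 to 7 of the 8 targets above their highest sham wild-type value. Sham knockout libraries had Cdkn1a at 1.83 to 3.13, with a target median of -0.19 to 0.31 and with 1 to 6 targets above that value. By the medians, high Cdkn1a came with raised targets in ligated wild-type livers and with targets near the sham wild-type level in sham knockout livers. The share of all genes above their own highest sham wild-type value is not given here. The counts of raised targets, here and below, therefore cannot be read as particular to p53 targets.

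Among ligated knockout livers, BDL_KO_2248 had the highest Cdkn1a of all 20 libraries, at 4.11, with a target median of 0.03 and 2 of 8 targets raised. Those were Btg2, at 24.9 FPKM, and Sesn2, at 6.38 FPKM and also the highest of all 20, while Trp53 and Gdf15 were the lowest of all 20 there. BDL_KO_2359 had the lowest Cdkn1a of the group, at 1.02, and a median of 0.20. BDL_KO_2365, BDL_KO_2370 and BDL_KO_2371 had Cdkn1a at 2.95, 2.76 and 2.34, with target medians of 1.06, 0.76 and 0.31. The medians of BDL_KO_2365 and BDL_KO_2370 lay within the range of ligated wild-type livers.

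A wider list of p53 targets, 30 genes of which 28 were tested, was examined in the same fit. After ligation in wild type 11 of 28 rose and 2 fell, against 18.1% of all genes called higher, with a median of 0.36. Eda2r and Tnfrsf10b were under 0.5 FPKM in all sham libraries and entered the test through the ligated ones, so their rise follows in part from the filter. The genes with the largest differences were Plk2, a stress-induced kinase, at 1.71 ± 0.34, the genes Eda2r and Tnfrsf10b of the tumour necrosis factor receptor family, Eda2r at 1.57 ± 0.29 and Tnfrsf10b at 1.51 ± 0.25, and Ddit4l, a growth inhibitor, at 1.48 ± 0.31 (log2, SE). Apaf1 and Pmaip1, which act in mitochondrial cell death, rose by 1.21 and 1.07, and Dcxr and Perp were the genes that fell, at -0.83 and -0.27. After ligation in knockout 5 of 28 rose and 2 fell, against 12.3% of all genes called higher, with a median of 0.10, and Trp53inp1, Tnfrsf10b, Pmaip1, Apaf1 and Sesn1 were those that rose, by 1.05, 0.81, 0.77, 0.59 and 0.49. Rps27l and Triap1 fell, at -0.51 and -0.49.

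In sham livers the wider list held no called gene with the direction of Cdkn1a. None of the 28 was higher in knockout livers than in wild-type ones, the median was 0.07, and, with 2.97% of all genes called in either direction, 1 gene fell. That gene was Trp53inp1, a stress-induced autophagy factor, at 10.1 ± 1.36 FPKM in sham knockout against 21.6 ± 6.91 FPKM in sham wild-type livers (SD, n = 5 each), a log2 difference of -1.01 ± 0.21 (SE, limma adjusted p = 0.0162). After ligation, knockout livers had 4 genes lower than wild type, against 5.37% of all genes called lower. They were Pmaip1, Apaf1 at -0.68, Ddb2 at -0.65 and Aen at -0.51, while Perp was higher at 0.28, and the median was -0.21. Pmaip1 averaged 0.828 ± 0.551 FPKM in ligated knockout and 2.00 ± 0.310 FPKM in ligated wild-type livers (SD, n = 5 each). No gene of the list passed the interaction (limma), 9 had an unadjusted p under 0.05 and voom called none. Without BDL_KO_2248 and BDL_KO_2359, 9 rose and 5 fell after ligation in knockout, while 37.4% of all genes were called, 19% of them all as higher. Against wild type 1 was higher and none lower, while 3.27% and 3.38% of all genes were.

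**Figure D4:**
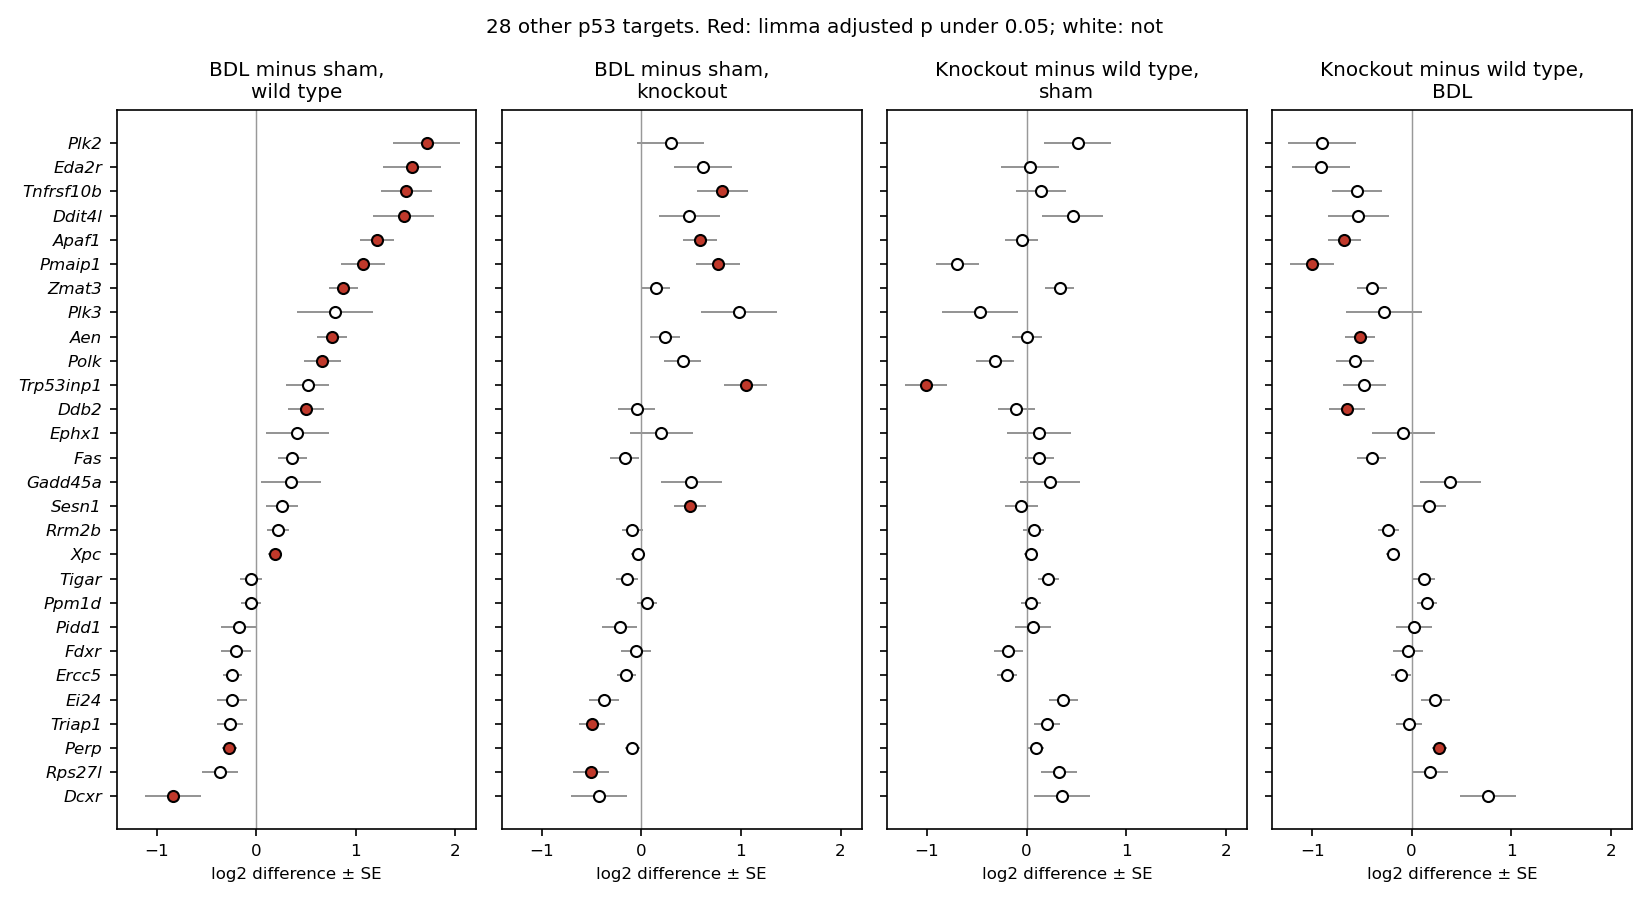
Differences of mean log2(FPKM + 0.5) with their SE for 28 further p53 targets in 4 comparisons, with red points for a limma adjusted p under 0.05 and white points for the others, ordered by the difference for ligation in wild type. In sham livers Trp53inp1, at -1.01, is the one red point.

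Few genes upstream of p53 were called at the level of mRNA. Of 14 tested regulators, which include kinases and ribosomal proteins that hold Mdm2 in check, none passed after ligation in wild type and only Atr, a DNA damage kinase, after ligation in knockout, at 0.40 ± 0.12 (SE, limma). None passed in either comparison of genotypes or in the interaction. At an unadjusted p under 0.05 there were 3 for ligation in wild type and 1 in each of the other 4 comparisons, and voom called 1 in each ligation comparison. The most abundant, the ribosomal protein genes Rpl11 and Rpl5, differed by 0.18 and 0.11 in sham knockout against sham wild-type livers. With BDL_KO_2248 and BDL_KO_2359 left out, 2 regulators rose and 2 fell after ligation in knockout, and none passed against wild type or in the interaction.

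Relatives and partners of p21 were compared next. Of 4 other tested inhibitors of cyclin-dependent kinases, only Cdkn2c passed, at 0.96 ± 0.29 (SE, limma) after ligation in knockout, and Cdkn1b, the gene of p27, differed by -0.06 in sham knockout against sham wild-type livers. Among 11 tested cyclins, kinases and other p21 partners, Cdk2, the classical kinase target of p21, fell in sham knockout livers, at 1.75 ± 0.340 FPKM against 2.79 ± 0.255 FPKM in sham wild-type livers (SD, n = 5 each), a log2 difference of -0.56 ± 0.13 (limma adjusted p = 0.0280). It also fell after ligation in wild type, by 0.47, where Cdk6 and Ccne1 rose by 0.44 each. After ligation in knockout Ccne1 and Cdk6 rose, by 0.81 and 0.54, and Ccnd3 fell by 0.42. Once BDL_KO_2248 and BDL_KO_2359 were left out, 7 of the 11 rose there and none fell, 1 was higher in ligated knockout than in ligated wild-type livers and 2 passed the interaction, while Cdkn2c remained the only other inhibitor called, at 1.27. In those fits 19%, 3.27% and 0.811% of all genes were called higher.

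Cell cycle genes that p21 is known to repress through the E2F and DREAM complexes were mostly not called. Of 17 tested, Tk1 fell by 1.05 after ligation in wild type, and Mcm6 and Birc5 rose by 1.75 and 1.29 after ligation in knockout. Between genotypes after sham none passed (limma), also without adjustment or by voom, with a median of -0.58 in sham knockout against sham wild type. That fit takes 1 spread from all 4 groups, and Mki67 varied from 0.0365 to 6.82 FPKM among ligated knockout libraries. Mki67 was 0.128 to 0.575 FPKM in sham knockout and 0.926 to 1.38 FPKM in sham wild-type livers. Top2a, Mcm3, Mcm5, Mcm6, Aurkb and Ccnb2 were also lower without overlap, while the share of all genes wholly lower is not given here. The other tested genes of the list overlapped, among them Mcm7, E2f1 and Aurka. Aurka averaged 1.79 FPKM in sham knockout against 1.31 FPKM in sham wild-type livers. The absence of calls does not show that these genes were equal. Between genotypes after ligation and in the interaction none passed either, 3 had an unadjusted p under 0.05 in each, and voom called none. Their result after ligation depended on the libraries that stood apart. Without BDL_KO_2248 and BDL_KO_2359, 15 of 17 rose after ligation in knockout, 12 were higher in ligated knockout than in ligated wild-type livers and 11 passed the interaction, while 19%, 3.27% and 0.811% of all genes were called higher in those fits.

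Other transcription factors reported at the Cdkn1a promoter and general stress genes were compared as well. Of 17 tested factors, 8 rose and 2 fell after ligation in wild type, against 18.1% of all genes called higher, led by Klf6 at 2.74, Egr1 at 2.63 and Myc at 1.42 among those higher and by Cebpa, at -0.93, among those lower. After ligation in knockout 5 rose and 1 fell, against 12.3% of all genes called higher, with Klf6 at 1.74 and Cebpa at -0.77. In ligated knockout against ligated wild-type livers Klf6 and Irf1 fell, by 1.36 and 0.90. In the fit without BDL_KO_2248 and BDL_KO_2359, 6 rose and 1 fell after ligation in knockout, and against wild type Klf6 alone fell, by 1.02. In the sham groups none of the 17 passed (limma), 4 had an unadjusted p under 0.05 and voom called none. Of 12 tested immediate early genes, a class to which Btg2 also belongs by its rapid induction, 11 rose after ligation in wild type, led by Atf3 at 2.96, Ier3 at 2.63, Egr1 at 2.63 and Fos at 2.58. In knockout 5 rose, led by Atf3 at 1.68, and 4, Atf3, Jun, Ier3 and Fos, fell in ligated knockout against ligated wild-type livers, by 1.56, 1.37, 1.27 and 1.20. All 4 of those calls were lost without BDL_KO_2248 and BDL_KO_2359, where the 4 genes differed by -1.17, -0.77, -0.78 and -0.69, while 5 still rose after ligation in knockout. In sham livers Ier2 alone rose in knockout, by 0.83.

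The integrated stress response, which can induce Sesn2 and Gdf15 without p53, was also followed. Of 15 tested genes, again against 18.1% of all genes called higher, 6 rose and 1 fell after ligation in wild type, with Atf3 at 2.96, Asns at 1.72, Nupr1 at 1.03 and Atf5 at -0.96, and in knockout Atf3 rose by 1.68, Asns by 1.58 and Psat1, under 0.5 FPKM in all sham libraries, by 0.60. In ligated knockout against ligated wild-type livers Atf3, Nupr1 and Ppp1r15a fell, by 1.56, 0.69 and 0.39, of which Ppp1r15a alone was called without BDL_KO_2248 and BDL_KO_2359, at -0.47, and between the sham groups none passed, also without adjustment or by voom. Of 10 tested senescence-associated genes, 4 rose and 1 fell after ligation in each genotype, against 18.1% of all genes called higher in wild type and 12.3% in knockout. Among them were Timp1 at 4.31 and Cxcl1 at 3.39 in wild type and Cxcl1 at 3.69 and Timp1 at 3.04 in knockout. Of the 4 that rose, 2 in each genotype, Timp1 among them, were under 0.5 FPKM in all sham libraries and entered the test through the ligated ones. Ccl2 and Il1b were among those lower in ligated knockout than in ligated wild-type livers, at -2.33 and -0.95, and differed by -1.22 and -0.55 without BDL_KO_2248 and BDL_KO_2359, where neither was called. Without those libraries 7 of the 10 rose and 1 fell after ligation in knockout, while 19% of all genes were called higher. Against wild type 1 was higher and 1 lower, while 3.27% and 3.38% of all genes were. Between the sham groups none passed (limma), 3 had an unadjusted p under 0.05 and voom called none.

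Clock genes were among those called between the sham groups, where no member that was tested passed. Of 16 tested, 4 passed, against 2.97% of all genes. Cry1, Nfil3 and Clock were higher in sham knockout livers than in the sham wild-type ones, by 1.51, 1.18 and 0.42, and Nr1d2 was lower, at 3.72 ± 0.987 FPKM against 13.2 ± 2.93 FPKM (SD, n = 5 each), a log2 difference of -1.70 ± 0.33 (SE, limma adjusted p = 0.00949). Nr1d1, whose product REV-ERBα is a circadian repressor, was 4.33 ± 2.85 FPKM in sham knockout and 20.1 ± 6.99 FPKM in sham wild-type livers, a difference of -2.19 ± 0.63 that did not pass (adjusted p = 0.0687). In ligated livers Nr1d1 averaged 7.74 ± 7.45 FPKM in knockout and 8.42 ± 4.58 FPKM in wild type. After ligation in knockout 5 clock genes rose and 3 fell, against 12.3% of all genes called higher, with Dbp at 2.12, Npas2 at -1.78, Per3 at 1.45 and Tef at 1.30. In the fit without BDL_KO_2248 and BDL_KO_2359 the balance turned, with 1 of 15 higher and 4 lower and a median of 0.09 against 0.57 with them. After ligation in wild type Per2 rose by 1.11 and Hlf and Clock fell, at -0.80 and -0.29, while none passed in ligated knockout against ligated wild type (limma), where 2 had an unadjusted p under 0.05 and voom called none. The labels do not state the hour at which livers were taken, and the part of the clock genes in the Cdkn1a values was not tested.

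Likeness to Cdkn1a was ranked over 12047 genes by Pearson's r of log2(FPKM + 0.5) across the 20 libraries, as a description of libraries that share groups. The most alike were Fem1c at 0.86, Zbtb16 at 0.85, Btaf1 at 0.85, Ivns1abp at 0.84 and Ralgapb at 0.83. Zbtb16, a zinc finger transcription factor gene, averaged 9.39 and 8.26 FPKM in ligated knockout and ligated wild-type livers and 5.66 and 2.18 FPKM in sham knockout and sham wild-type livers, and Fem1c 5.15, 5.14, 4.35 and 2.95 FPKM in the same order. Among the members Btg2 stood at 0.74, rank 41, Phlda3 at 0.63, rank 264, Ccng1 at 0.59, rank 419, and Sesn2 at 0.50, rank 1066. Mdm2, Bax and Gdf15 lay between 0.44 and 0.48, Bbc3 at 0.27 and Trp53 at 0.18, rank 4072. Btg2 was thus the member most like Cdkn1a, and Bbc3 and Trp53 were the least alike. After subtraction of group means the most alike were Slc16a6 at 0.86, Itgb3 at 0.84, Ets2 at 0.81, Gpihbp1 at 0.81 and Fam208b at 0.79, and among the members Btg2 at 0.67, rank 72, and Sesn2 at 0.61, rank 143, were nearest, with Trp53 at 0.07 and Bbc3 at -0.24.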

How the data were processed

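Polyadenylated RNA from mouse liver was sequenced in 20 libraries, with TRIzol extraction and the VAHTS Universal V6 kit per the labels. The authors deposited FPKM values per gene. The submitters' processing notes list HISAT2 2.0.5 and featureCounts 1.5.0-p3 beside fastp, CASAVA 1.8 and DESeq2 1.20.0, and the builds GRCm38 and mm10, without roles, strand setting or annotation release. Groups came from the sample titles. Mice lacking Abcb4, named in the design, were not analysed here.

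Multiplied by GENCODE M21 exonic lengths, 98.1 to 98.5% of the low values came out as whole fragments (tolerance 0.02), which gave the depth. The 14059 genes that reached 0.5 FPKM in 5 or more libraries were tested on log2(FPKM + 0.5) with limma 3.58.1 in R 4.3.3, with 1 mean per group and moderated variances with trend and robust estimation, adjusted by Benjamini-Hochberg at 0.05, which was tested on simulated data. A pseudocount understates changes of low genes such as Phlda3. The members, lists and the libraries to leave out were chosen with earlier results of these data known, so counts over lists are descriptions. Beside them, 18.1% of all genes were called higher for ligation in wild type and 12.3% for ligation in knockout. For knockout after ligation 5.37% were called lower. Without BDL_KO_2248 and BDL_KO_2359, 19% were higher for ligation in knockout, and 3.27% higher and 3.38% lower for knockout after ligation. Counts at an unadjusted p cannot be set against these shares. All 10 members are named in each comparison, and from each list up to 4 called genes with the largest difference or the most abundant ones. Further genes of the lists were named after their values were seen. Some genes, such as Atf3, stand on more than 1 list, and some listed genes are not reported here. Alternatives were other pseudocounts, filters, scalings, weights and covariates, fits of only the groups compared, and leaving out libraries. A voom fit of recovered fragments was chosen after seeing the data. RefSeq promoters and gene coordinates (GRCm38) came from reference annotations.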

Additional observations from a re-analysis of the deposited data

Results flagged for a closer look

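Of 40 sets of 5 values, 10 genes in 4 groups, 1 held a library far from the others. Gdf15 in sham knockout livers was 9.91 FPKM in Sham_KO_2352, against 1.88 to 4.12 FPKM in the other 4, a gap larger than 0.71 of the range. Chance gives this in about 1 of 20 such sets. Sham_KO_2352 also had the highest Cdkn1a and Mdm2 of its group, at 25.3 and 8.29 FPKM.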

How the results depend on the processing

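No paired analysis was possible because each library carries a number of its own. Ligation in wild type gave 6 to 9 member calls under 32 alternatives (7 as reported), the 9 with library-sum scaling, and knockout against wild type after sham gave none under any of the 32. Calls for ligation in knockout, 2 as reported, were 1 without a filter, with only the groups compared or by voom, 4 with array weights or without BDL_KO_2248 and BDL_KO_2359, and 1 to 3 with single libraries left out. Calls for knockout against wild type after ligation, 4 as reported, were 2 without a filter, with array weights or with library sex as a covariate, 0 with only the groups compared, 1 without BDL_KO_2248 and BDL_KO_2359, and 1 to 7 with single libraries left out. In that comparison Trp53, Gdf15, Btg2 and Mdm2 lost their calls under 21, 22, 5 and 2 of the 32 alternatives. The interaction, 0 as reported, gave 1 with array weights and 0 to 1 with single libraries left out. No member's called difference changed sign. The Cdkn1a differences ranged from 2.97 to 3.63 for ligation in wild type, -0.25 to 0.53 for ligation in knockout, 2.33 to 2.73 for knockout after sham, -0.90 to -0.13 for knockout after ligation and -3.42 to -2.64 for the interaction. The causes of these changes were not tested. Depth limits Phlda3 and Gdf15 most, which rest on 12 and 20 fragments in BDL_KO_2248. Phlda3 also rests on 6 fragments in Sham_KO_2353 and on 9 to 16 fragments in the sham wild-type libraries.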
